A study of Mus musculus with 6 samples.

Results

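Wnt signalling genes were followed in whole optic nerves of mice in which Nf1 had been targeted in myelinating cells. The 44 genes examined, of 24062 in the deposited files, were picked by name: 19 Wnt ligands, 10 Frizzled (Fzd) receptors with the co-receptor genes Lrp5 and Lrp6, 10 secreted inhibitors (Dkk1 to Dkk4, Sfrp1, Sfrp2, Sfrp4, Sfrp5, Wif1 and Tsku), and Axin2, Lef1 and Tcf7, which report or carry out the nuclear response. The mutant group had 3 libraries from PlpCreERT2;Nf1flox/flox animals, which carry a tamoxifen-inducible Cre recombinase under the Plp promoter, active in myelin-forming cells, and 2 floxed Nf1 alleles. The control group had 3 libraries without the Cre, 1 labelled Nf1flox/flox (control library 1) and 2 labelled Nf1flox/+ (control libraries 2 and 3). Animals of both groups were adults over 2 months old, had tamoxifen, and gave nerves 1 month later. Whether each library came from its own animal is not stated, so the spread between libraries may be partly technical. Whole nerve was sequenced, so cells that kept Nf1 are included, and fewer cells of a type cannot be told apart from less RNA per cell.

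Wnt proteins are lipid-modified signals that bind Frizzled receptors together with Lrp5 or Lrp6. In the canonical branch, binding stops the Axin-containing destruction complex from degrading beta-catenin, which then acts with the DNA-binding proteins Lef1 and Tcf7 and switches on genes such as Axin2. Secreted inhibitors act outside the cell, either on the ligand (Sfrp and Wif1 proteins) or on the co-receptor (Dkk1). In the central nervous system the pathway shapes vessels and the blood-brain barrier, and its activity in oligodendrocyte precursors delays their maturation.

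Libraries held 13555756 to 19012262 counts in mutants and 21307855 to 23662698 counts in controls. Nf1 itself had 304, 226 and 433 CPM (counts scaled to library size by edgeR's TMM method) in mutant libraries 1, 2 and 3, against 394, 400.0 and 337 CPM in control libraries 1, 2 and 3, so counts over the whole gene overlapped and did not check the genotype. Mutant library 2 stood apart from the other mutants. Its summed level over 10 markers of mature oligodendrocytes was 33816 CPM, where mutant libraries 1 and 3 had 5425 and 4662 CPM and controls had 25877 to 26698 CPM. Neuron markers were higher in sum in all mutants. The 8 genes summed to 1649 to 5952 CPM in mutants and 511 to 950 CPM in controls, and 5 of the 8 rose. Controls also held these transcripts, with Snap25 at 200 to 543 CPM, and whether they came from neuron cell bodies was not tested. In mutant library 2 Stmn2 (38.4 CPM) and Slc17a7 (0.0756 CPM) were below every control. All 10 markers of striatal projection neurons rose, summing to 1435 to 2295 CPM in mutants and 115 to 173 CPM in controls. Xist, a marker of female tissue, had 30602 to 51760 counts in the mutants and 72727 in control library 2, against 58 and 34 in control libraries 1 and 3. Sex and genotype thus cannot be told apart except against control library 2.

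Of the 44 genes, 37 passed the filter on low counts and were tested. Wnt2 and Wnt7a rose and Tsku fell in the mutants at a Benjamini-Hochberg adjusted p under 0.05 in edgeR, the test used throughout unless another is named, which called no other member. Over all 16315 genes tested, 2.95% rose and 0.337% fell. DESeq2 called 8 members, those 3 with Wnt4, Wnt5a, Wnt6, Wnt8b and Fzd2 lower, where it called 10.1% of all genes, 7.13% higher and 2.96% lower. Limma-voom called Wnt2, Tsku and Wnt4, where it called 3.1% of all genes, 2.56% higher and 0.539% lower, and edgeR without the filter called Wnt4 besides the first 3. The median log2 fold change was -0.75 over the tested members and 0.00 over all genes, and 30 of the 37 members had a negative value, as did 50.1% of all genes. Groups did not overlap in 13 members that were lower in every mutant library than in any control, where 11.5% of all genes did this, and in 2 members that were higher, where 12.5% did. Without mutant library 2 the called members numbered 18, with 3 higher and 15 lower, where 13.2% of all genes rose and 13.8% fell. Mutant library 2 alone against the controls gave 1 call, Wnt2, where 1.15% of all genes rose and 0.126% fell. In that fit, chosen after seeing the data, only the controls supply the spread and the lone mutant library is assumed to vary like them.

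**Figure D1:**
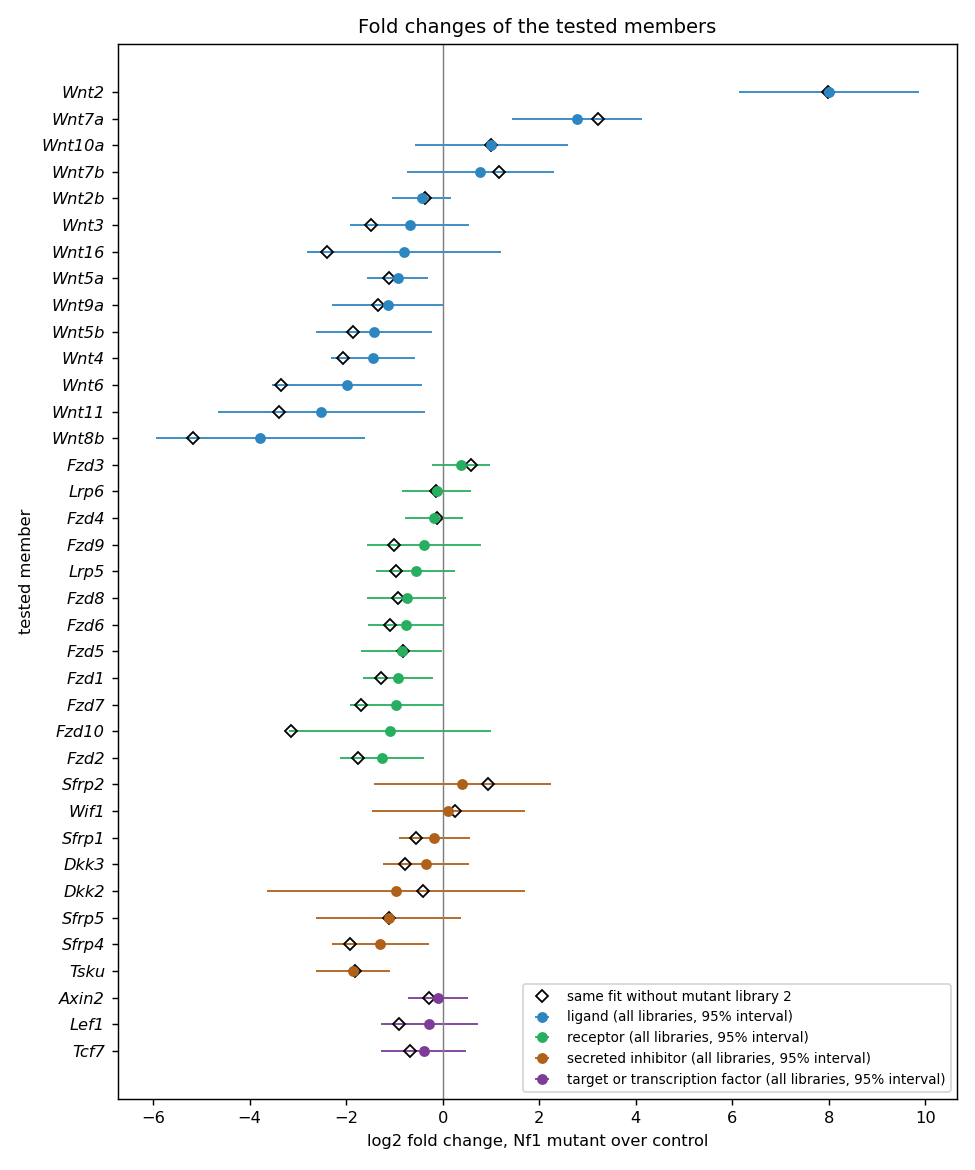
Log2 fold changes of the 37 tested members, Nf1 mutant over control, grouped by role, with 95% intervals, and the same values without mutant library 2 as open diamonds. Wnt2 at 8.01 and Wnt7a at 2.78 lie on the right, and 30 of the 37 values are below 0.

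Wnt2 was close to absent from control nerves and present in every mutant library. It encodes a ligand best known for lung and placental development, and lies on chromosome 6 (17988940 to 18030445, minus strand, 5 exons, mm10). Mutant libraries 1, 2 and 3 had 116, 77 and 60 counts (6.26, 5.82 and 4.19 CPM), against 0, 1 and 0 counts in control libraries 1, 2 and 3. The groups were far apart, and mutant library 2 lay with the other mutants. From the summed counts, 253 against 1, the ratio of mutant to control was 375, with an exact 95% interval of 66.8 to 14887 that covers counting error only. The fit gave 8.01 on the log2 scale with an SE of 0.82, values that depend on the prior count. The edgeR adjusted p was 0.00226. The call held without each of the 6 libraries in turn, with edgeR adjusted p of 0.000125 to 0.0295. It was lost with Xist as a covariate (edgeR adjusted p 0.160) and against control library 2 alone (edgeR adjusted p 0.353), settings in which edgeR called no gene at all. Control library 2, the control with high Xist, held the single control count.

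The tested genes on either side of Wnt2 did not pass. St7, which ends 45917 bases away, had 35.8, 24.8 and 40.3 CPM in mutant libraries 1, 2 and 3 against 19.8, 16.7 and 22.8 CPM in control libraries 1, 2 and 3, which gives 0.77 on the log2 scale (edgeR adjusted p 0.168). Cftr, 140242 bases away on the other side, had a log2 fold change of -0.37 (edgeR adjusted p 0.677).

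Wnt7a also rose, but unevenly. It encodes a ligand that, with Wnt7b, acts on brain endothelium through the co-receptors Gpr124 and Reck, and lies on chromosome 6 (91363983 to 91411369, minus strand, 4 exons). Mutant libraries 1, 2 and 3 had 13.0, 2.80 and 12.9 CPM, against 1.39, 1.16 and 1.62 CPM in control libraries 1, 2 and 3. Mutant library 2 lay closer to the controls than to the other mutants. The group means were 9.57 ± 5.87 CPM in mutants and 1.39 ± 0.228 CPM in controls (SD, n = 3 each), and the fit gave 2.78 on the log2 scale, with an SE of 0.59 and an edgeR adjusted p of 0.0415. The call was lost without any 1 of 5 libraries: edgeR adjusted p was 0.167 and 0.133 without mutant libraries 1 and 3, and 0.195, 0.199 and 0.146 without control libraries 1, 2 and 3. Without mutant library 2 the log2 fold change was 3.22 (edgeR adjusted p 0.000125).

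Summed neuron and striatal markers were also higher in every mutant library than in any control. The summed neuron level was 5952, 1649 and 4229 CPM in mutant libraries 1, 2 and 3, lowest in library 2, as was Wnt7a. The summed striatal level was 2295, 1435 and 1560 CPM in those libraries, also lowest in library 2, whereas Wnt2 was lowest in mutant library 3. None of these marker genes was at 0 in all mutants, 5 of 8 neuron and 10 of 10 striatal markers rose, and the part of neuronal RNA in the rise of either ligand was not tested. A list of 5 cortical neuron genes summed to 231, 8.16 and 33.4 CPM in mutant libraries 1, 2 and 3, against 5.94, 8.29 and 10.99 CPM in control libraries 1, 2 and 3. Of its 4 tested genes 0 were called. In mutant library 2 the sum lay within the control range, though Tbr1 in it had 1.21 CPM, above the controls at 0.0829 to 0.788 CPM.

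**Figure D2:**
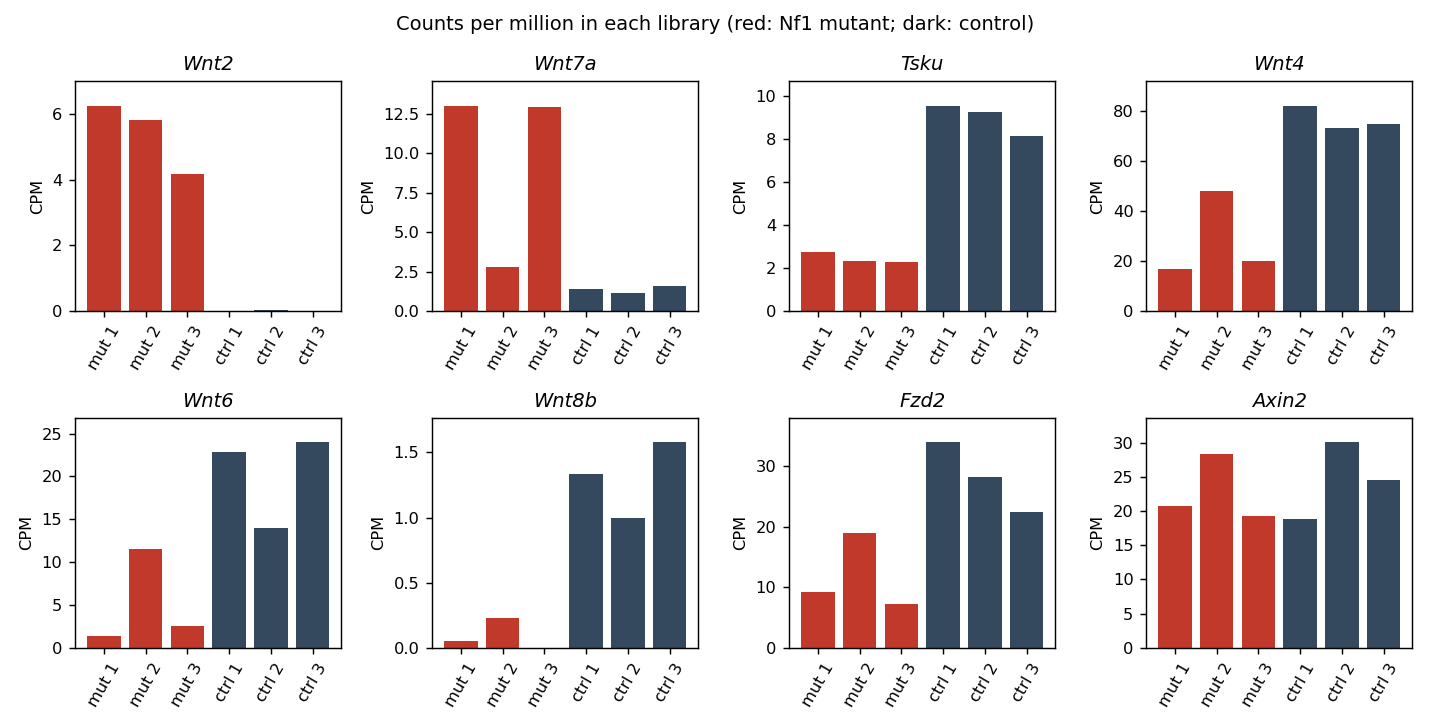
CPM of 8 members in each library, Nf1 mutant in red at the left of each panel and control at the right, with a separate linear axis from 0 for each gene. Wnt2 is at 4.19 to 6.26 CPM in the mutants and at most 0.0415 CPM in the controls, Tsku is evenly lower in all 3 mutants, and for Wnt4, Wnt6 and Fzd2 mutant library 2 lies between the other mutants and the controls.

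The promoters of the 3 genes that passed are shown because their transcripts differed between the groups, with that of Wnt11 as the tested member whose window holds a TCF match. Each is the 250 bases before the RefSeq start (GRCm38.p6, the assembly of mm10), written 5′ to 3′ on the strand of the gene, with matches in capitals. Motifs searched on both strands were the TCF/LEF site (CTTTGAA or CTTTGAT), the cAMP response element (TGACGTCA) and the AP-1 site (TGANTCA).
Wnt2 (chr6:18030446-18030695, minus strand): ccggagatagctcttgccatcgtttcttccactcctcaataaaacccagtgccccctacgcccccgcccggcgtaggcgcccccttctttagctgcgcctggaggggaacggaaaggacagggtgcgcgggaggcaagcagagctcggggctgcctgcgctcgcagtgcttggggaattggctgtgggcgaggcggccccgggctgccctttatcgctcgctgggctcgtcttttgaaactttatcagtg
Wnt7a (chr6:91411354-91411603, minus strand): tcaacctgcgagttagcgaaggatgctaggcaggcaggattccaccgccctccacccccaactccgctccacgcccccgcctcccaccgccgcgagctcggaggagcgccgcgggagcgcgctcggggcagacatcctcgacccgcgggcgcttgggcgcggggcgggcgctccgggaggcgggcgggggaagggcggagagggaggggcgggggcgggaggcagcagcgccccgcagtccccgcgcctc
Tsku (chr7:98361329-98361578, minus strand): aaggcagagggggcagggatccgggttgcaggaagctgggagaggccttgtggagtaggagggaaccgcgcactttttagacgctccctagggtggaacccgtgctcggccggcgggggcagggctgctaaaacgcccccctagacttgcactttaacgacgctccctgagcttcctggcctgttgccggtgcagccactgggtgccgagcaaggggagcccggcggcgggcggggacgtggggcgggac
Wnt11 (chr7:98834862-98835111, plus strand): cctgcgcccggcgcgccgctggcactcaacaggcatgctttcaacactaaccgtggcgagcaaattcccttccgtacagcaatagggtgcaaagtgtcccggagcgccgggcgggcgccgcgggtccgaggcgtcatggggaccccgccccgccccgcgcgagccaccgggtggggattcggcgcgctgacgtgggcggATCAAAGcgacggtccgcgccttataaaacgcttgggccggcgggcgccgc
The windows of Wnt2, Wnt7a and Tsku hold none of the 3 motifs, and that of Wnt11 holds a TCF match on the opposite strand, 51 to 45 bases before the start. RefSeq windows matched 30 of the 44 members, with 38 starts. A TCF match was in 3 of those 38 windows and in 7.48% of all 32851 windows, an AP-1 match in 1 and in 6.75%, and a cAMP response element in 0 and in 1.55%. Matches are letters in these windows and do not show binding.

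The ligands with the highest levels in control nerves were lower in the mutants, though edgeR called none of them with all libraries and the filter on low counts. Per kilobase of exon, Wnt4 led the ligands with 7.40 RPKM in mutants and 20.1 RPKM in controls, ahead of Wnt6 with 2.51 and 9.80 RPKM, Wnt5a with 3.92 and 7.49 RPKM, and Wnt2b with 3.95 and 5.34 RPKM in mutants and controls. In controls the library ranges of Wnt6 (6.76 to 11.6 RPKM) and Wnt5a (5.49 to 8.53 RPKM) overlapped, so that neighbouring pair was not separated, whereas Wnt4 (19.2 to 21.5 RPKM) lay above both.

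Wnt4, a ligand of kidney and gonad development, had 16.7, 48.2 and 20.0 CPM in mutant libraries 1, 2 and 3 against 82.2, 73.4 and 74.9 CPM in control libraries 1, 2 and 3. All mutants were below all controls, with library 2 the nearest. The log2 fold change was -1.44 (95% interval -2.32 to -0.57, edgeR adjusted p 0.0850), and without mutant library 2 Wnt4 fell by 2.06 (edgeR adjusted p 0.000123). For Wnt4 the adjusted p with all libraries was 0.0434 in limma-voom and 0.0424 in edgeR without the filter, and DESeq2 gave 0.00778. Wnt6, a ligand of epithelia and neural crest, had 1.403, 11.6 and 2.58 CPM in mutant libraries 1, 2 and 3 against 22.8, 14.0 and 24.0 CPM in control libraries 1, 2 and 3. Its log2 fold change was -1.98 (95% interval -3.53 to -0.43, edgeR adjusted p 0.163), and -3.35 without mutant library 2 (edgeR adjusted p 0.000225). Wnt6 thus had a wide spread among the mutants, from 1.403 to 11.6 CPM.

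Wnt5a, the main ligand of the beta-catenin-independent branch, had 14.2, 21.1 and 16.1 CPM in mutant libraries 1, 2 and 3 against 37.0, 37.3 and 24.0 CPM in control libraries 1, 2 and 3 (log2 fold change -0.94, SE 0.28, edgeR adjusted p 0.115). Its relative Wnt5b had 1.13 to 3.02 CPM in mutants and 3.24 to 7.73 CPM in controls (log2 fold change -1.43, edgeR adjusted p 0.188). Both were below every control in every mutant library, and both fell without mutant library 2, by 1.11 and by 1.85 (edgeR adjusted p 0.0137 and 0.0251).

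Some scarce ligands showed large ratios on few counts. Wnt8b, a ligand of the embryonic forebrain, had 1, 3 and 0 counts in mutant libraries 1, 2 and 3 against 27, 24 and 38 counts in control libraries 1, 2 and 3 (log2 fold change -3.78, SE 0.96, edgeR adjusted p 0.0725). Its groups did not overlap, and it fell without mutant library 2 (log2 fold change -5.18, edgeR adjusted p 0.00845). Wnt11, which acts in cell movement in the embryo, had 4, 6 and 0 counts in mutant libraries 1, 2 and 3 against 38, 26 and 22 counts in control libraries 1, 2 and 3 (log2 fold change -2.51, edgeR adjusted p 0.195). Wnt9a had 1.19 to 4.26 CPM in mutants and 5.10 to 8.87 CPM in controls (log2 fold change -1.13, edgeR adjusted p 0.274).

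The other tested ligands showed no call with all libraries. Wnt2b, a ligand of the eye margin and close relative of Wnt2, had 13.1, 13.1 and 16.2 CPM in mutant libraries 1, 2 and 3 against 16.6, 23.9 and 16.7 CPM in control libraries 1, 2 and 3 (log2 fold change -0.43, 95% interval -1.04 to 0.17, edgeR adjusted p 0.418). Wnt7b, the partner of Wnt7a, had 11.9, 2.19 and 2.72 CPM in mutant libraries 1, 2 and 3 against 2.77, 4.77 and 2.28 CPM in control libraries 1, 2 and 3. Only mutant library 1 was high for Wnt7b, and exons of Wnt7b overlap the gene AU022754, from which reads could not be separated without strand. Wnt3 had 2.48 to 8.09 CPM in mutants and 4.71 to 9.75 CPM in controls, Wnt16 had 0.108 to 2.12 CPM in mutants and 1.41 to 1.63 CPM in controls, and Wnt10a had 0.628 to 1.29 CPM in mutants and 0.290 to 0.792 CPM in controls. Wnt3 fell without mutant library 2 (log2 fold change -1.48, edgeR adjusted p 0.0285).

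The remaining 5 ligands were too scarce to test. Wnt1, the founding vertebrate member, had 8, 0 and 5 counts in mutant libraries 1, 2 and 3 against 0, 3 and 0 in control libraries 1, 2 and 3, and its neighbour Wnt10b, 11707 bases away on chromosome 15, had 5, 0 and 11 against 0, 5 and 0. Both had counts in the same 3 libraries. Wnt9b had 1 count over the mutants and 15 over the controls, a ratio of control to mutant of 10.1 (exact 95% interval 1.56 to 426, counting error only). Wnt3a had 0 counts in the mutants and 1 in the controls, and Wnt8a had 0 and 4. Of another adjacent pair, neither gene passed: Wnt10a, whose log2 fold change was 1.00 (edgeR adjusted p 0.474), starts 6700 bases after Wnt6 on chromosome 1, whose value was -1.98 (edgeR adjusted p 0.163).

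The make-up of the ligand pool was described from these values, and no share was tested. Wnt2 and Wnt7a were summed because they were the ligands called higher. Wnt2 and Wnt7a together made 27.8%, 9.62% and 24.9% of the summed ligand RPKM in mutant libraries 1, 2 and 3, against 0.776%, 0.757% and 1.02% in control libraries 1, 2 and 3. Wnt4 made 17.2%, 33.4% and 21.5% in mutant libraries 1, 2 and 3, against 38.2%, 37.8% and 39.2% in control libraries 1, 2 and 3. The sum itself was 25.3, 37.8 and 24.3 RPKM in mutant libraries 1, 2 and 3 against 56.2, 50.86 and 50.05 RPKM in control libraries 1, 2 and 3, so the total was below every control in each mutant library.

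**Figure D3:**
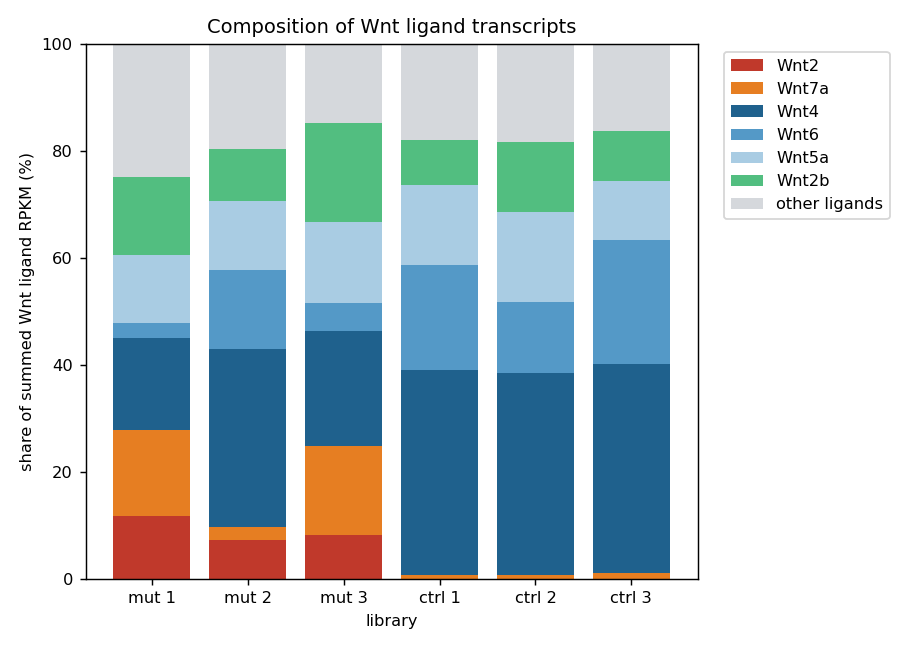
Share of the summed Wnt ligand RPKM taken by 6 ligands and by the rest together, for each library, Nf1 mutant at the left and control at the right. Wnt2 and Wnt7a together take 9.62% to 27.8% in the mutants and at most 1.02% in the controls.

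Mean levels of the Frizzled receptors, except Fzd3, were lower in the mutants than in the controls. In mutant library 2, Fzd9 and Fzd10 were above every control. Of 12 receptor and co-receptor genes 0 passed in edgeR with all libraries, where 3.29% of all genes did. An unadjusted p under 0.05 was seen in 3 of the 12 in edgeR, where 19.2% of all genes had one. DESeq2 called 1, Fzd2, where it called 10.1% of all genes, and limma-voom called 0. Of the fold changes 11 of the 12 were negative, with a median of -0.75. Without mutant library 2, Fzd1, Fzd2, Fzd6, Fzd7, Fzd10 and Lrp5 fell and Fzd3 rose, where 13.8% of all genes fell and 13.2% rose.

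Fzd3, which guides growing axons through the planar polarity branch, was the most abundant Frizzled, with 35.4 RPKM in mutants and 27.1 RPKM in controls. It had 498, 320.2 and 536 CPM in mutant libraries 1, 2 and 3 against 368, 341 and 328 CPM in control libraries 1, 2 and 3. Mutant libraries 1 and 3 were above all controls and library 2 below them, and the log2 fold change was 0.38 (95% interval -0.21 to 0.98, edgeR adjusted p 0.467), or 0.59 without mutant library 2 (edgeR adjusted p 0.0367). Its share of the summed Frizzled RPKM was 67.4%, 38.7% and 66.2% in mutant libraries 1, 2 and 3, against 37.1%, 35.8% and 34.7% in control libraries 1, 2 and 3.

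Fzd2 had the smallest p of the receptors. It had 9.28, 19.0 and 7.26 CPM in mutant libraries 1, 2 and 3 against 34.0, 28.3 and 22.5 CPM in control libraries 1, 2 and 3, with no overlap (log2 fold change -1.26, SE 0.38, edgeR adjusted p 0.119), and it fell by 1.76 without mutant library 2 (edgeR adjusted p 0.00130). Fzd1, of the same subfamily, had 21.2, 35.1 and 16.5 CPM in mutant libraries 1, 2 and 3 against 36.2, 47.6 and 55.1 CPM in control libraries 1, 2 and 3 (log2 fold change -0.93, edgeR adjusted p 0.161). Fzd7, the third member of that subfamily, had 17.1, 49.3 and 15.8 CPM in mutant libraries 1, 2 and 3 against 58.4, 54.8 and 46.4 CPM in control libraries 1, 2 and 3. For Fzd7 mutant library 2 was within the control range, and the log2 fold change was -0.96 with all libraries (edgeR adjusted p 0.262) and -1.69 without mutant library 2 (edgeR adjusted p 0.000492).

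Fzd5, which has roles in eye development, had 8.20, 13.8 and 20.5 CPM in mutant libraries 1, 2 and 3 against 24.7, 18.9 and 32.9 CPM in control libraries 1, 2 and 3 (log2 fold change -0.85, edgeR adjusted p 0.258), and here mutant library 3, not 2, was nearest the controls. Fzd10 had 1.29, 8.39 and 0.209 CPM in mutant libraries 1, 2 and 3 against 7.48, 6.14 and 7.22 CPM in control libraries 1, 2 and 3, so mutant library 2 was the highest of all 6. Its log2 fold change was -1.09 (edgeR adjusted p 0.565), and -3.14 without mutant library 2 (edgeR adjusted p 0.00390). Fzd6, a planar polarity receptor, had 7.45 to 19.2 CPM in mutants and 21.8 to 24.3 CPM in controls, and Fzd8 had 3.02 to 5.06 CPM in mutants and 6.05 to 7.68 CPM in controls, without overlap in either. Their log2 fold changes were -0.76 and -0.75 (edgeR adjusted p 0.272 and 0.306). Fzd9 had 1.67 to 5.29 CPM in mutants and 3.36 to 5.06 CPM in controls.

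Fzd4, the receptor of norrin in retinal vessels, had 10.5, 10.7 and 13.9 CPM in mutant libraries 1, 2 and 3 against 14.1, 13.0 and 12.7 CPM in control libraries 1, 2 and 3, with a log2 fold change of -0.18 (95% interval -0.78 to 0.42, edgeR adjusted p 0.752). Of the co-receptors, Lrp6 had 142, 215 and 276 CPM in mutant libraries 1, 2 and 3 against 298, 224 and 169 CPM in control libraries 1, 2 and 3 (log2 fold change -0.13, 95% interval -0.84 to 0.59, edgeR adjusted p 0.866). Lrp6 was at 22.5 RPKM in mutants and 24.6 RPKM in controls, several-fold above its relative Lrp5 at 2.10 RPKM in mutants and 3.09 RPKM in controls. Lrp5 had a log2 fold change of -0.56 (edgeR adjusted p 0.437) and fell without mutant library 2 (-0.96, edgeR adjusted p 0.0400).

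**Figure D4:**
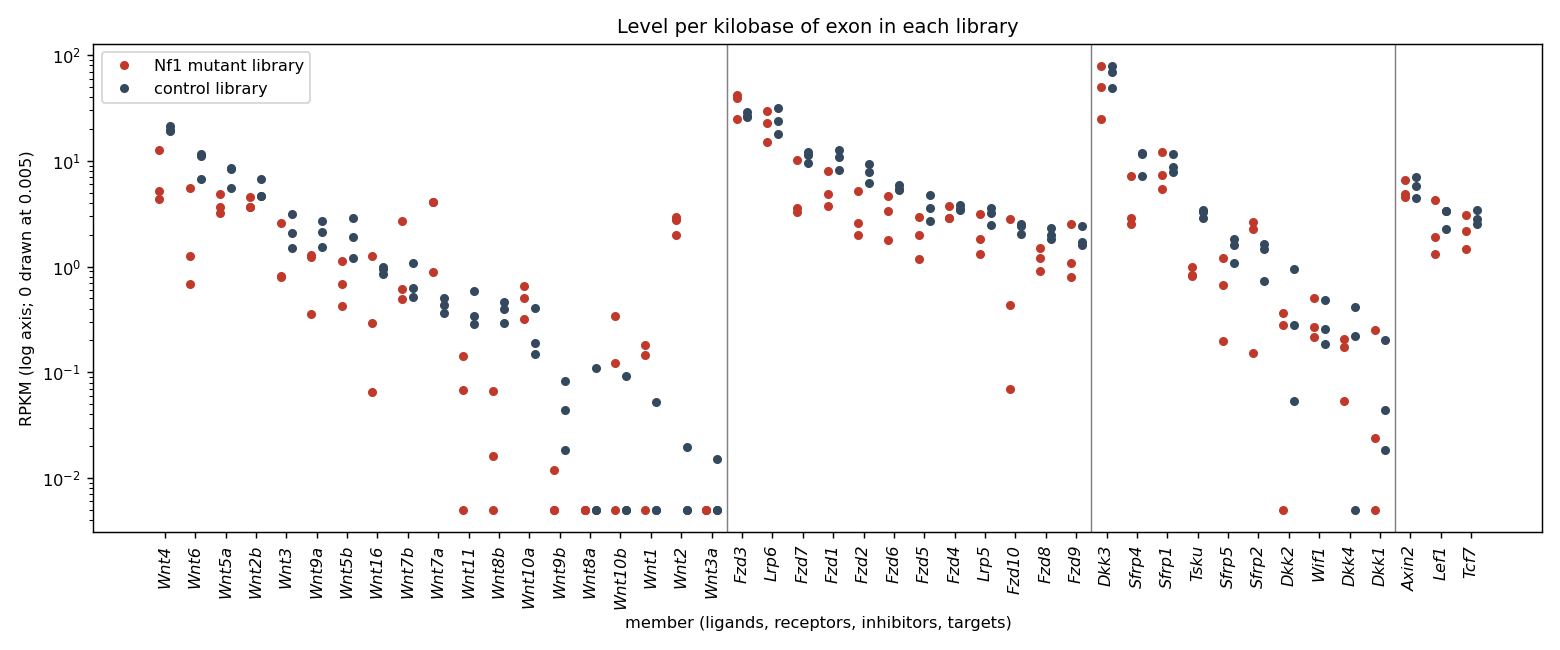
RPKM of all 44 members in each library on a log axis, grouped by role and ordered by the control mean, Nf1 mutant libraries in red to the left of control libraries in dark. Wnt4, Fzd3, Dkk3 and Axin2 lead their groups in controls, and Wnt2 is the ligand whose mutant points stand farthest above its control points.

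Among secreted inhibitors Tsku was the member that fell. Tsku encodes Tsukushi, a small leucine-rich proteoglycan that, in work on the chick eye, blocks Wnt signalling by binding Frizzled 4, and lies on chromosome 7 (98350668 to 98361328, minus strand, 4 exons). It had 2.75, 2.34 and 2.30 CPM in mutant libraries 1, 2 and 3 against 9.56, 9.25 and 8.13 CPM in control libraries 1, 2 and 3. The spread within each group was small beside the gap, at 2.47 ± 0.249 CPM in mutants and 8.98 ± 0.751 CPM in controls (SD, n = 3 each), and mutant library 2 lay with the other mutants. The fit gave -1.86 on the log2 scale, with an SE of 0.34 and an edgeR adjusted p of 0.0246, and stayed within -1.95 to -1.81 without each library in turn. Its edgeR adjusted p was 0.0781 and 0.0660 without mutant libraries 1 and 3, and up to 0.168 without 1 control library, so leaving out any library but mutant library 2 ended the call. Of its tested neighbours, Acer3 had a log2 fold change of 0.02 (edgeR adjusted p 0.977) and Lrrc32 had 3.78, 27.1 and 5.23 CPM in mutant libraries 1, 2 and 3 against 32.9, 35.0 and 28.5 CPM in control libraries 1, 2 and 3 (edgeR adjusted p 0.273).

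Dkk3, a divergent Dickkopf protein, was by far the most abundant inhibitor, at 51.4 RPKM in mutants and 65.5 RPKM in controls. It had 169.6, 265 and 84.0 CPM in mutant libraries 1, 2 and 3 against 164, 263 and 232 CPM in control libraries 1, 2 and 3 (log2 fold change -0.35, 95% interval -1.24 to 0.54, edgeR adjusted p 0.678). The low value came from mutant library 3. Sfrp4, a secreted Frizzled-related protein, had 4.48, 12.6 and 5.02 CPM in mutant libraries 1, 2 and 3 against 20.6, 20.9 and 12.6 CPM in control libraries 1, 2 and 3 (log2 fold change -1.29, edgeR adjusted p 0.159), and it fell by 1.92 without mutant library 2 (edgeR adjusted p 0.00189). Sfrp1, which binds Wnts in the same way, had 23.8, 53.7 and 32.0 CPM in mutant libraries 1, 2 and 3 against 34.2, 38.6 and 50.7 CPM in control libraries 1, 2 and 3 (log2 fold change -0.18, 95% interval -0.91 to 0.56, edgeR adjusted p 0.817). For Sfrp1, mutant libraries 1 and 3 were thus below every control and mutant library 2 above every control.

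Sfrp5 had 0.378, 1.28 and 2.30 CPM in mutant libraries 1, 2 and 3 against 3.47, 3.03 and 2.07 CPM in control libraries 1, 2 and 3 (log2 fold change -1.12, edgeR adjusted p 0.398). Sfrp2 had 4.53, 0.302 and 5.23 CPM in mutant libraries 1, 2 and 3 against 2.92, 1.45 and 3.28 CPM in control libraries 1, 2 and 3, the reverse of the common pattern, with mutant library 2 the lowest. Dkk2 had 25, 0 and 15 counts in mutant libraries 1, 2 and 3 and varied from 4 to 85 counts among controls. Wif1, a Wnt-binding protein, had 7 to 21 counts in mutants and 10 to 22 counts in controls. Dkk1, the classical blocker of Lrp6, and Dkk4 were too scarce to test, with 9 and 9 counts over the mutants and 14 and 18 over the controls.

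The 3 genes of the nuclear readout gave no call by edgeR, DESeq2 or limma-voom, where these called 3.29%, 10.1% and 3.1% of all genes. An unadjusted p under 0.05 in edgeR was seen in 0 of the 3, where 19.2% of all genes had one. Axin2, the feedback target most widely used to report canonical signalling, had 20.8, 28.3 and 19.3 CPM in mutant libraries 1, 2 and 3 against 18.9, 30.0 and 24.5 CPM in control libraries 1, 2 and 3. The groups overlapped, and the log2 fold change was -0.10 (95% interval -0.73 to 0.52, edgeR adjusted p 0.875). Lef1, a DNA-binding partner of beta-catenin and itself a target, had 4.86, 15.7 and 7.05 CPM in mutant libraries 1, 2 and 3 against 12.5, 12.5 and 8.38 CPM in control libraries 1, 2 and 3 (log2 fold change -0.28, 95% interval -1.29 to 0.73, edgeR adjusted p 0.782). Tcf7 had 4.86, 6.88 and 3.28 CPM in mutant libraries 1, 2 and 3 against 5.70, 7.71 and 6.35 CPM in control libraries 1, 2 and 3 (log2 fold change -0.40, 95% interval -1.27 to 0.48, edgeR adjusted p 0.621). The intervals of Lef1 and Tcf7 reach past a fall of 1 log2 unit, and that of Axin2 does not.

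**Figure D5:**
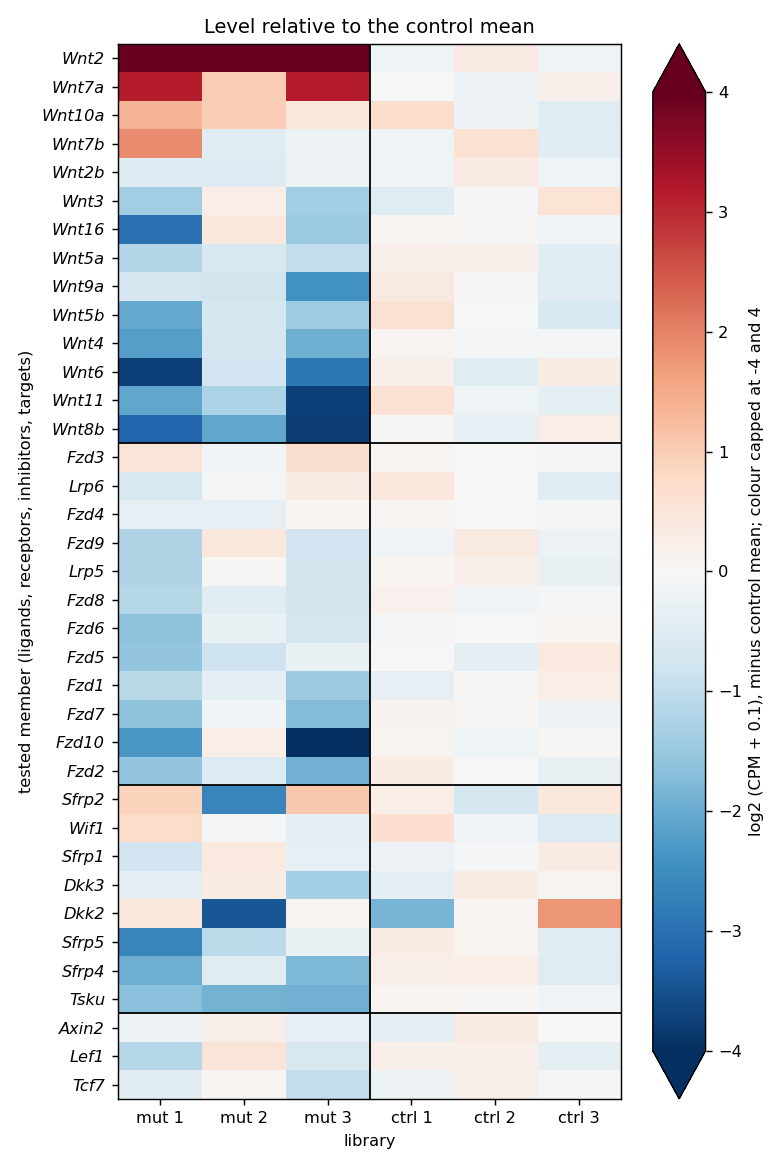
Levels of the 37 tested members in each library as log2 (CPM + 0.1) minus the control mean, Nf1 mutant libraries at the left, with genes grouped by role and the colour capped at -4 and 4. Mutant library 2 is the highest of the mutants in 22 of the 37 genes (38.9% of all genes), while Wnt2 and Tsku are of like colour in all 3 mutants.

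The wider pathway was described with 9 lists, which overlap and hold the members Fzd3 and Fzd6 under planar polarity and Lef1 under brain endothelial targets. Of their 81 distinct tested genes edgeR called 0 with all libraries, TMM scaling and the filter, where it called 3.29% of all genes. Limma-voom called 0, where it called 3.1% of all genes. An unadjusted p under 0.05 in edgeR was seen in 19 of the 81, near the 19.2% of all genes. DESeq2 called 7 of the 81, where it called 10.1% of all genes (Celsr2, Celsr3, Igfbp4, Lgr5, Prickle3, Rspo3 and Tcf7l1). Without mutant library 2 edgeR called 32 of the 83 listed genes then tested, where it called 27% of all genes. By role, tested genes numbered 5 for secretion and release, 8 for the R-spondin axis, 8 for other antagonists, 4 for the norrin and Reck-Gpr124 complexes, 17 for the cytoplasmic core, 11 for nuclear partners, 11 for reporter targets, 8 for brain endothelial targets and 17 for planar polarity receptors. Their median log2 fold changes ran from -0.77 for secretion and release to 0.21 for the cytoplasmic core. Wls, which carries Wnts to the cell surface, had 28.7, 58.3 and 66.4 CPM in mutant libraries 1, 2 and 3 against 108, 86.4 and 80.5 CPM in control libraries 1, 2 and 3 (log2 fold change -0.84, edgeR adjusted p 0.200), lower in every mutant than in any control. Gpc6, a cell-surface glypican, had -0.93, Gpc4 had -0.77 and Porcn, which attaches the lipid to Wnts, had 0.28.

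Rspo3, an R-spondin that raises Wnt receptor levels, had 21.2, 28.6 and 22.3 CPM in mutant libraries 1, 2 and 3 against 40.4, 54.1 and 40.7 CPM in control libraries 1, 2 and 3 (log2 fold change -0.91, edgeR adjusted p 0.0842), and fell without mutant library 2 (edgeR adjusted p 0.00907). Its receptor gene Lgr5 had 19.9, 2.72 and 53.8 CPM in mutant libraries 1, 2 and 3 against 4.71, 4.15 and 6.47 CPM in control libraries 1, 2 and 3 (log2 fold change 2.32, edgeR adjusted p 0.169), with mutant libraries 1 and 3 high and library 2 below all controls. Rnf43, a ligase that removes Frizzleds and a reporter target, had a log2 fold change of -0.97 and Rspo2 of -0.88.

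Of the complexes that relay Wnt7a and Wnt7b to vessels, Reck had 20.4, 47.9 and 28.0 CPM in mutant libraries 1, 2 and 3 against 56.7, 68.8 and 64.6 CPM in control libraries 1, 2 and 3 (log2 fold change -0.98, edgeR adjusted p 0.142). Gpr124 had 12.2, 40.8 and 13.7 CPM in mutant libraries 1, 2 and 3 against 46.3, 49.1 and 41.2 CPM in control libraries 1, 2 and 3 (log2 fold change -1.04, edgeR adjusted p 0.244). Both were below every control in every mutant library, and both fell without mutant library 2 (edgeR adjusted p 0.00183 and 0.000365). The log2 fold changes of Tspan12 and Ndp, which act with Fzd4, were -0.23 and 0.15.

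Among nuclear partners Tcf7l1, mostly a repressor, had 3.02, 4.99 and 2.58 CPM in mutant libraries 1, 2 and 3 against 13.7, 9.91 and 8.26 CPM in control libraries 1, 2 and 3 (log2 fold change -1.59, SE 0.39, edgeR adjusted p 0.0658). It passed in edgeR with total-count scaling (adjusted p 0.0498) and without the filter (adjusted p 0.0465). Tcf7l2, which is active in differentiating oligodendrocytes, had a log2 fold change of -0.74 (edgeR adjusted p 0.202), Bcl9l of -0.55 and Tle4 of 0.51. Of 11 reporter targets other than Axin2, 8 had negative fold changes, with Ccnd1 at -0.86 and Apcdd1 at -0.70, and 3 positive, with Lgr5 at 2.32. Without mutant library 2, 5 of the 11 fell and Lgr5 rose, where 13.8% of all genes fell and 13.2% rose. Of endothelial targets, Cldn5 was at -0.69, Sox17 at -0.64 and Tnfrsf19 at 0.23. The cytoplasmic genes Apc, Gsk3b and Btrc were at 0.55, 0.55 and 0.43 and Ctnnd1 at -0.41. Planar polarity genes held both signs, with Celsr3 at 1.26, Celsr2 at 0.96, Vangl1 at -0.91 and Prickle3 at -1.50. Igfbp4, Kremen1 and Frzb, which encode further antagonists, were at -0.99, -0.80 and 1.17.

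Markers of other cell types moved alongside the lower members. Fibroblast markers, 12 genes with none at 0 and 0 called, summed to 479, 2198 and 619 CPM in mutant libraries 1, 2 and 3 against 2786 to 3671 CPM in controls. Endothelial markers, 10 genes of which Kdr fell, summed to 184, 364 and 246 CPM in mutant libraries 1, 2 and 3 against 430 to 490 CPM in controls, and 8 pericyte and smooth muscle markers summed to 109.7, 228 and 101 CPM in those libraries against 283 to 309 CPM in controls. In each of these 3 lists mutant library 2 stood between the other mutants and the controls. It took the same place for Wnt4, Wnt6 and Fzd2, but not for Tsku or Fzd5. Schwann cell markers, 5 genes, summed to 92.1, 384 and 76.0 CPM in mutant libraries 1, 2 and 3 against 346 to 386 CPM in controls. Astrocyte markers, 10 genes with 0 called, summed to 5793 to 6964 CPM in mutants and 5679 to 5854 CPM in controls. The largest part of that sum was Slc1a2, at 3214 to 4772 CPM in mutants and 1813 to 2005 CPM in controls, while 6 of the 10 fold changes were negative and the list's median was -0.46. Precursor markers, 8 genes, summed to 307, 696 and 304 CPM in mutant libraries 1, 2 and 3 against 710.4 to 826 CPM in controls. Here too mutant library 2 stood between the other mutants and the controls. Microglia markers, 8 genes, summed to 314 to 726 CPM in mutants and 565 to 720.2 CPM in controls. The part of these cell types in the lower values was not tested.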

How the data were processed

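Per the labels' protocols, total optic nerve RNA went through NuGEN Ovation amplification before Nextera XT library preparation. The authors deposited raw fragment counts per gene, made with featureCounts 1.4.6-p4 over exons of the UCSC mm10 annotation. Strand was not used, per the file headers, and TopHat and mm10 are named in the submitters' processing notes. No row lacked a gene name. Libraries were grouped by title and numbered in order of deposit, so numbers pair no samples. Replicates differed beyond sampling noise (lowest chi-square over its degrees of freedom, 45.6).

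Genes passing filterByExpr (minimum count 10) were fitted with edgeR 4.0.16 in R 4.3.3, using TMM scaling and the quasi-likelihood F test, mutant over control, with no covariate. P-values were adjusted by Benjamini-Hochberg over all 16315 genes, with 0.05 as the threshold. The SE is the log2 fold change divided by the square root of F, and 95% intervals use the fit's degrees of freedom. CPM uses TMM-scaled library sizes, and RPKM is CPM per kilobase of exon. Alternatives were 3 other scalings, 2 other filters, DESeq2 1.42.0, limma 3.58.1 voom, an Xist covariate, counts without Rn45s, and other sets of libraries. Mutant library 2 alone against the controls was added after seeing the data.

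The members, lists and naming rule were chosen with earlier results of these data known. The rule took called members, up to 10 called without some library, the 4 smallest p and 3 highest RPKM per role, and up to 4 genes per pathway list. The other members are given by counts or ranges, and values in every library for Wnt7b, Wnt11, Fzd4, Fzd10, Sfrp2, Dkk2, Wnt2b, Wnt1 and Wnt10b were added after their values were seen. Tiki2, a listed name, was not matched. Not matched to a RefSeq promoter window were 14 members.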

Additional observations from a re-analysis of the deposited data

How the results depend on the processing

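The direction of Wnt2, Wnt7a and Tsku held under all 17 alternatives. Of these, Wnt2 passed in 15, Wnt7a in 8 and Tsku in 9. Wnt7a was also lost with limma-voom (adjusted p 0.0860), which called Wnt4. The number of members called, 3, became 8 with DESeq2, 1 in mutant library 2 alone, 1 to 18 without each library, and 0 by edgeR both with Xist as a covariate and against control library 2 alone, where 8 and 4 members had an unadjusted p under 0.05. The number of all genes called, 537, became 870 without a filter, 1645 with DESeq2, 222 in mutant library 2 alone, 51 to 4551 without each library, and 0 by edgeR in both Xist settings, where 1304 and 894 genes had an unadjusted p under 0.05. Where 1 library stands alone it is assumed to vary like the other group, and the cause of the lost calls was not tested. No paired analysis was possible because the labels give no replicate numbers.

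None of the 3 called members changed sign, and 24 of 69 genes followed, all uncalled, did in at least 1 setting. In mutant library 2 alone, log2 fold changes were -0.11 for Fzd3, -0.13 for Gsk3b, -0.19 for Wif1, -0.58 for Wnt7b, -0.91 for Lgr5, -1.06 for Frzb, -3.05 for Sfrp2, 0.026 for Lrp5, 0.059 for Ctnnd1, 0.063 for Tcf7, 0.076 for Rnf43, 0.21 for Axin2, 0.21 for Wnt3, 0.27 for Dkk3, 0.27 for Fzd10, 0.29 for Cldn5, 0.38 for Sfrp1, 0.40 for Fzd9, 0.46 for Wnt16 and 0.50 for Lef1. Sfrp2 was at -0.13 with limma-voom. Tspan12 was at 0.036 with the Xist covariate and 0.10 against control library 2 alone. Without each library in turn the values ran from -0.34 to 0.59 for Wif1, -0.41 to 1.16 for Wnt7b, -0.90 to 0.035 for Lef1, -0.55 to 0.058 for Sfrp1, -0.36 to 0.11 for Lrp6, -0.051 to 0.94 for Sfrp2, -0.24 to 1.65 for Frzb, -0.28 to 0.080 for Axin2, -0.20 to 0.71 for Ndp and -1.58 to 0.37 for Dkk2. Low counts limit Wnt1, Wnt3a, Wnt8a, Wnt8b, Wnt9b, Wnt10b, Dkk1 and Dkk4.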
